A study of Mus musculus with 12 samples.

Results

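The change between embryonic day 10.5 (E10.5) and E11.5 that head and trunk muscle progenitors have in common was taken from 8 of the 12 arrays of the study: the 4 E11.5 arrays (2 of head and 2 of trunk progenitors) were set against the 4 E10.5 arrays (2 of head and 2 of trunk), with region as a term of the model. Genes on the X and Y chromosomes were left out, with 7 of no known chromosome and 1 mitochondrial gene, which kept 7466 autosomal genes of the 7722 genes that passed a filter on low signals. All embryos were ICR mice carrying Myf5Cre;RosaYFP, in which a cell that has expressed Myf5, and every descendant of that cell, makes yellow fluorescent protein (YFP). Head and trunk were dissected apart, dissociated, sorted for YFP by flow cytometry, and their RNA was amplified before hybridisation. The groups were therefore head progenitors at E11.5, trunk progenitors at E11.5, head progenitors at E10.5 and trunk progenitors at E10.5. A sort on this label takes in whatever the Myf5 lineage holds, at any step of differentiation, and Myf5-driven Cre is also known to mark some cells outside skeletal muscle. The labels do not say how many embryos went into an array, or whether both arrays of a group came from separate embryos, so the p-values below measure the spread between these arrays, which may be technical. They also do not say whether same-numbered head and trunk arrays of a stage share embryos; if they do, each stage has 2 independent samples and not 4.

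Skeletal muscle forms when progenitors switch on the basic helix-loop-helix factors Myf5, Myod1, Myog and Myf6, leave the cell cycle, and build sarcomeres from actin, myosin, troponin and titin. In the trunk the progenitors come from somites and carry Pax3 and later Pax7. In the head they come from pharyngeal and other cranial mesoderm, where Tbx1, Isl1, Msc, Tcf21 and Lhx2 act in place of Pax3.

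The deposited values are MAS5 signals on a linear scale, and every array had nearly the same median, between 108.6 and 110.4 over all non-control probe sets. A probe set under its array's median is called dim here, and a fold change that involves a dim array is given as a bound ("at least"), with that array's signal raised to the median. Signals are given below in the order of the replicate numbers. The 2 arrays of a group correlated at 0.948 to 0.965 on the log2 scale. The first principal component of the 8 arrays carried 41.5% of the variance and separated head from trunk. The second carried 20.1% and separated the stages, from -25.4 to -1.9 for the E11.5 arrays and from 9.8 to 23.9 for the E10.5 arrays. Both E10.5 arrays numbered 1 had low Xist, 7.35 in head and 6.37 in trunk on the log2 scale, whereas the other 10 arrays lay between 11.89 and 13.10, so results are also given without this pair. Myf5 itself, the gene behind the sort, was well above the median on all 8 arrays, with 1787 and 1772 in head and 1078 and 1261 in trunk at E11.5, against 2294 and 2120.3 in head and 1117 and 1150.2 in trunk at E10.5. Its signal was higher in head than in trunk, the stages overlapped, and the log2 difference was -0.13 (adjusted p = 0.699).

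Over both regions, 27 genes passed limma's test at an adjusted p below 0.05 (0.362% of the genes tested): 22 rose (0.295%) and 5 fell (0.067%). Those that rose were led by the muscle determination factor Myod1, sarcomere genes (Tnnt1, Ttn and Myot), surface receptors (Fgfr4, Erbb3 and Dner) and transcription factors (Nfix, Msc and Tbx2). Those that fell were Sall4, Hapln1, Vnn1, Kitl and Tiparp. The rises ranged from 0.45 to 4.69 and the falls from -1.80 to -0.77 on the log2 scale, and 18 of the rises and 4 of the falls were at least 2-fold as fitted, dim arrays included. Without any adjustment, 962 genes had p below 0.05. The median log2 difference of all genes tested was 0.01, and the 10th and 90th percentiles were -0.33 and 0.38.

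All 27 genes moved the same way in head and in trunk in the signals as deposited. For Nfix, however, every head array of both stages was dim. With dim arrays raised to the median its log2 difference was -0.00093 in head and 0.34 in trunk, so no rise in head can be read for it. In each region taken alone, both E11.5 arrays lay beyond both E10.5 arrays for all 27; the same held for 503 genes going up (6.74%) and 424 going down (5.68%) of the 7466. With the regions pooled, the 4 E11.5 arrays lay above the 4 E10.5 arrays for 18 of the 22 that rose, against 250 of all genes (3.35%), and below for 5 of the 5 that fell, against 188 of all genes (2.52%). The 4 exceptions were Msc, Tspan33, Rgs16 and Parm1, for which head and trunk stood at different levels. These separations use the values that made the calls and are given as a description.

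**Figure D1:**
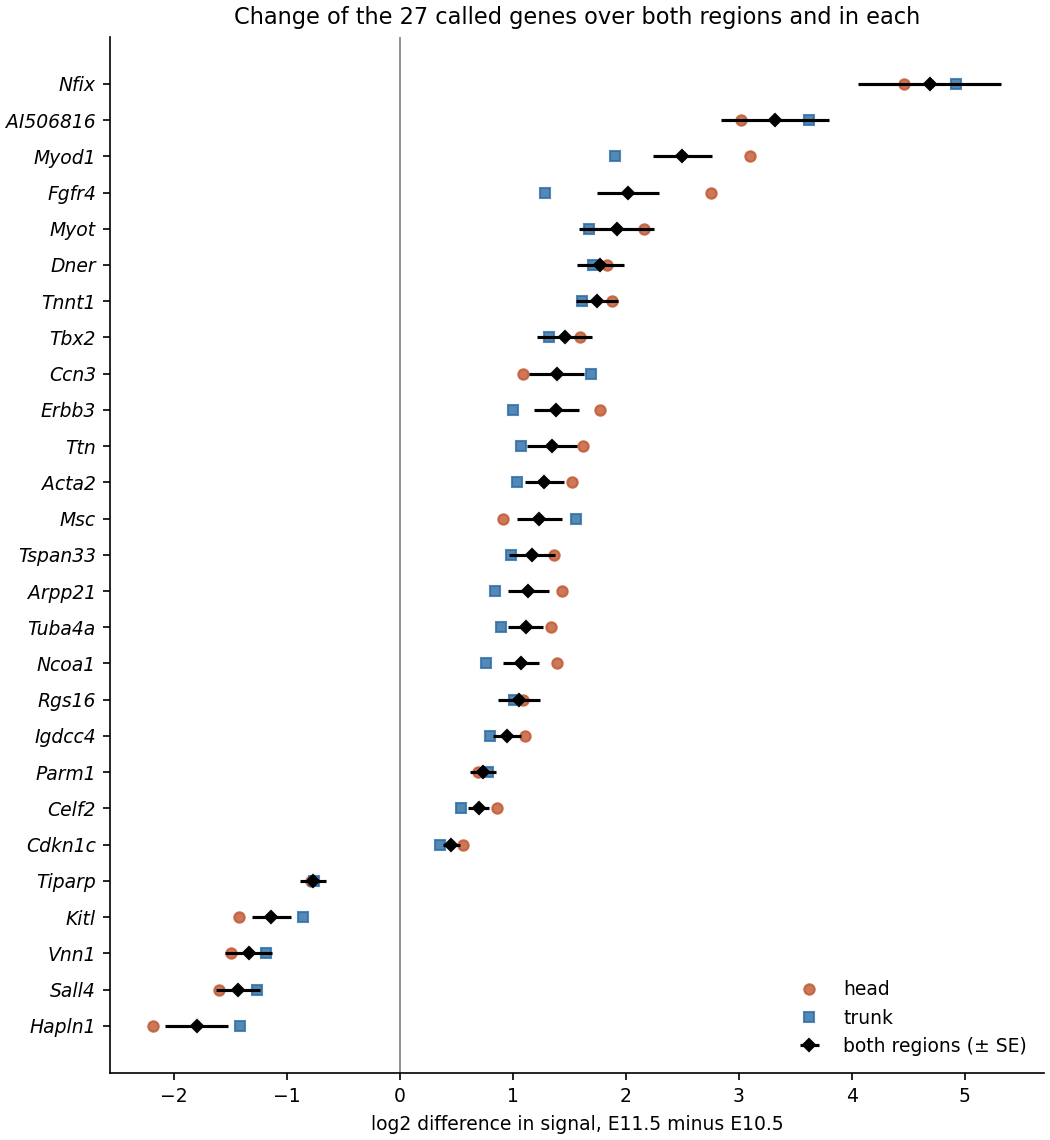
Log2 difference in signal, E11.5 minus E10.5, for the 27 genes that passed the test over both regions; diamonds are the estimate over both regions with its SE, circles the change in head and squares the change in trunk. All 22 genes that rose lie right of 0 in head and in trunk, and all 5 that fell lie left of 0 in both. Signals of dim arrays are plotted as deposited.

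The size of the change was larger in head than in trunk for 17 of the 22 genes that rose and for 5 of the 5 that fell. Over all genes tested, limma's tests within a region gave 1289 genes with an unadjusted p below 0.05 in head and 608 in trunk. How often head had the larger change over all genes was not counted. Without that share, the counts of 17 and 5 cannot be read as a trait of the called genes. The median size was 1.48 in head and 1.05 in trunk for the genes that rose, and 1.50 in head and 1.18 in trunk for those that fell, on the log2 scale. None of the 27 passed limma's test of the difference between the regions, but neither did any other gene (smallest adjusted p = 0.142). The test over both regions counts an unequal change as error, so it favours genes of equal change from the start. The result therefore does not show that the 27 changed equally. The unadjusted p of the difference was below 0.05 for Fgfr4 (0.00092), Myod1 (0.0104), Ncoa1 (0.0364) and Erbb3 (0.0438), and not for the rest. The 2 most unequal were Fgfr4, with 2.75 in head and 1.29 in trunk (adjusted p of the difference = 0.297), and Myod1, with 3.10 in head and 1.90 in trunk (adjusted p of the difference = 0.358).

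The calls rested on few arrays. Leaving out 1 array at a time gave between 4 called genes (without head E11.5 replicate 1) and 33 (without trunk E11.5 replicate 1), and the 27 genes kept their sign in every one of these fits. Myod1, Tnnt1 and Dner were called in all 8 fits, and Ccn3 and Tspan33 in none. Tnnt1 lost its call in a fit to all 12 arrays (adjusted p = 0.126) and Dner without the intensity trend (adjusted p = 0.0604). For Erbb3 and Igdcc4 the call depended on a single array, head E11.5 replicate 1, without which their adjusted p values were 0.0956 and 0.0926. Without both E10.5 arrays of low Xist only 2 genes were called, Nfix and AI506816, while the log2 values of the 27 genes stayed at 0.764 to 1.186 times their original size. A model with a mean for each of the 4 groups, which takes the difference between regions out of the error, called 111 genes, all 27 among them.

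Among the transcription factors that rose, Myod1, which commits cells to the muscle fate, had 2156 and 2337 in head and 1198 and 879 in trunk at E11.5, against 319 and 216 in head and 226 and 334 in trunk at E10.5 (gene at chr7:46376474-46379092, GRCm38.p6). Each E11.5 array was above each E10.5 array, and the head E11.5 pair was highest. Myod1 rose by 2.50 ± 0.26 (SE) on the log2 scale, 5.65-fold, with an adjusted p of 0.00827. The change was 3.10 in head and 1.90 in trunk.

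Msc (musculin), a basic helix-loop-helix repressor known in mice for its part in jaw muscle development, had 3557 and 3662 in head and 913.5 and 619 in trunk at E11.5, against 1674 and 2194 in head and 309.5 and 212 in trunk at E10.5 (chr1:14753344-14756089). Head was above trunk at both stages, so the pooled stages overlap, but within each region both E11.5 arrays were higher. Msc rose by 1.23 ± 0.20 (SE) on the log2 scale, 2.35-fold, with an adjusted p of 0.0294. Its change was 0.91 in head and 1.55 in trunk, and the call was lost without any single array of E10.5 or of head E11.5 (adjusted p from 0.0518 to 0.0956).

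Nfix, a nuclear factor I protein that in mouse fetal muscle drives the shift from embryonic to fetal gene expression, had 102 and 74.0 in head and 119 and 163 in trunk at E11.5, against 3.8 and 4.1 in head and 6.1 and 3.5 in trunk at E10.5 (chr8:84704712-84801238). All 4 E10.5 arrays and both head arrays of E11.5 were dim, and only the trunk arrays of E11.5 were above the array median. Nfix rose by 4.69 ± 0.63 (SE) on the log2 scale, at least 1.12-fold, with an adjusted p of 0.0143. The log2 value rests on signals near the bottom of the scale, and the fold is a bound. Nfix passed the signal filter only through its 2 bright E11.5 arrays, so it had to be higher there, and its call is no independent support. The call was lost without any single E11.5 array (adjusted p from 0.0574 to 0.118). Of the other measured family members, Nfia had a log2 difference of 0.99 (adjusted p = 0.0673) and Nfib of 0.72 (adjusted p = 0.306).

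Tbx2, a T-box repressor of the pharyngeal region and limb, had 327 and 232 in head and 421 and 344.5 in trunk at E11.5, against 63.2 and 131 in head and 137 and 170.5 in trunk at E10.5. The groups did not overlap, and 1 E10.5 array was dim. Tbx2 rose by 1.46 ± 0.25 (SE) on the log2 scale, at least 2.39-fold, with an adjusted p of 0.0387. Leaving out any array except head E10.5 replicate 1 ended its call (adjusted p from 0.0528 to 0.139). Together with Msc it made 2 called genes of the 15 tested pharyngeal mesoderm regulators, whose median log2 difference was 0.02. Isl1 was at -0.52 (adjusted p = 0.255), Tbx1 at 0.02 (adjusted p = 0.979), Tcf21 at -0.07 (adjusted p = 0.938) and Lhx2 at -0.22 (adjusted p = 0.919).

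The other factors that define the myogenic programme did not pass the test over both regions. Myog, which drives terminal differentiation, had 1581 and 1318 in head and 825 and 1127 in trunk at E11.5, against 335 and 227 in head and 607 and 689.7 in trunk at E10.5. Every E11.5 array was above every E10.5 array. The difference was 2.39 in head and 0.58 in trunk, and over both regions the log2 difference was 1.48 (adjusted p = 0.0815). In limma's tests within a region, the adjusted p of Myog was 0.00244 in head and 0.576 in trunk. Such an unequal change counts as error in the test over both regions. Pax7, a marker of muscle stem cells and their precursors, had 126 and 266 in head and 175 and 179 in trunk at E11.5, against 44.1 and 59.5 in head and 86.1 and 136 in trunk at E10.5, with 3 dim E10.5 arrays and a log2 difference of 1.27 (adjusted p = 0.121). Pax3 was at -0.08 (adjusted p = 0.915) and Meox1, a somite homeobox gene, at 0.01 (adjusted p = 0.99). The Meox1 difference was 0.90 in head and -0.88 in trunk. Myf6 did not reach the signal filter and was not tested. Of the 8 tested myogenic factors and cofactors, 1 (Myod1) rose, none fell, and the median log2 difference was 0.42.

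**Figure D2:**
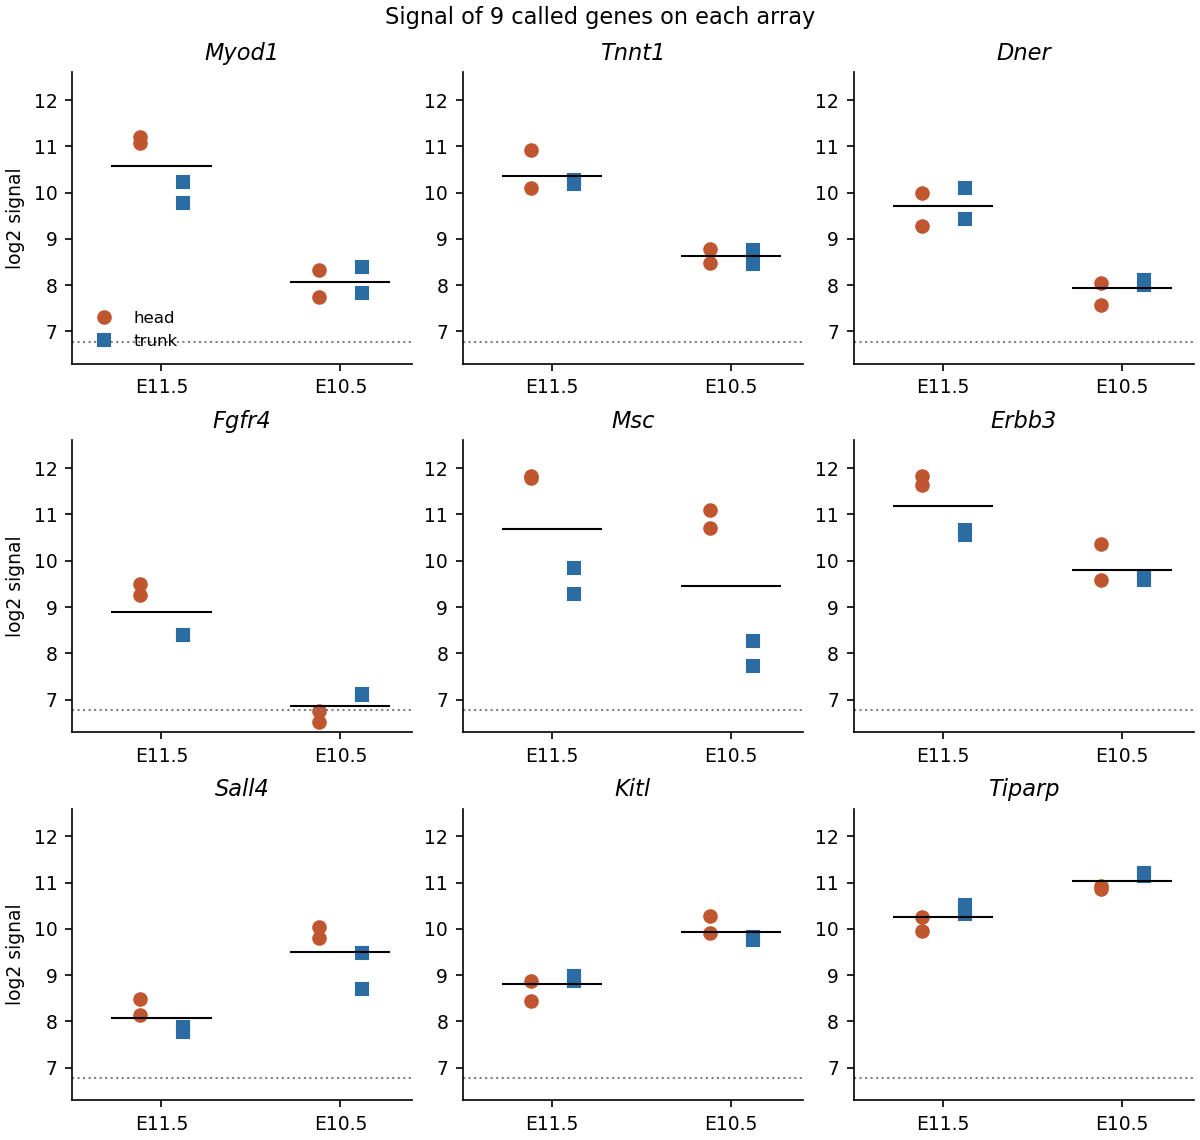
Log2 signal of 9 called genes on each array, E11.5 left and E10.5 right in each panel; circles are head arrays, squares trunk arrays, bars the mean of the 4 arrays of a stage, and the dotted line the median probe set of an array. The E11.5 arrays of Myod1, Tnnt1, Dner, Fgfr4 and Erbb3 lie above all E10.5 arrays, those of Sall4, Kitl and Tiparp below, and Msc separates by stage only within a region.

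Of the sarcomere genes, Tnnt1, which encodes the troponin T of slow skeletal muscle, had 1927 and 1093 in head and 1242 and 1157.5 in trunk at E11.5, against 355 and 440.2 in head and 354 and 434 in trunk at E10.5 (chr7:4504569-4515975). The lowest E11.5 array was above the highest E10.5 array. Tnnt1 rose by 1.74 ± 0.19 (SE) on the log2 scale, 3.35-fold, with an adjusted p of 0.00827, and the change was 1.88 in head and 1.61 in trunk.

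Ttn, the giant protein that spans the sarcomere from Z-disc to M-line, had 3563 and 1646 in head and 2256 and 2034 in trunk at E11.5, against 829 and 752 in head and 1104.5 and 935 in trunk at E10.5 (chr2:76703980-76982557). The groups did not overlap, and head E11.5 replicate 1 was the highest array. Ttn rose by 1.35 ± 0.22 (SE) on the log2 scale, 2.54-fold, with an adjusted p of 0.0322. The call was lost without any 1 of the 4 E10.5 arrays or without trunk E11.5 replicate 1 (adjusted p from 0.0598 to 0.135).

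Myot (myotilin), a Z-disc protein, had 193 and 95.9 in head and 239 and 147 in trunk at E11.5, against 23.4 and 39.4 in head and 66.3 and 52.3 in trunk at E10.5. All E10.5 arrays and 1 E11.5 array were dim, and the stages did not overlap. Myot rose by 1.92 ± 0.33 (SE) on the log2 scale, at least 1.5-fold, with an adjusted p of 0.0432. It passed the filter only through 3 E11.5 arrays, so its call is no independent support either. Only the fit without trunk E11.5 replicate 2 kept its call (adjusted p in the other 7 from 0.0534 to 0.139).

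Acta2, the smooth muscle actin that developing skeletal and heart muscle also make for a time, had 8576 and 7199.8 in head and 3611 and 6299.8 in trunk at E11.5, against 3028 and 2472 in head and 2306.5 and 2354 in trunk at E10.5 (chr19:34240336-34255585). All E11.5 arrays were above all E10.5 arrays, with the smallest gap at trunk E11.5 replicate 1. Acta2 rose by 1.28 ± 0.17 (SE) on the log2 scale, 2.42-fold, with an adjusted p of 0.0143, a call lost without head E10.5 replicate 2 (adjusted p = 0.0577) or the first head array of E11.5 (adjusted p = 0.0926). Acta2 was the 1 called gene of the 7 cardiac and smooth muscle genes tested, 1 of which passed the filter only through E11.5. Myocd, the smooth and heart muscle coactivator, was at 0.53 (adjusted p = 0.635) and Nkx2-5, an early heart factor, at 0.69 (adjusted p = 0.423). All 7 had a positive difference, against 51.3% of all genes. Their median was 0.685, or 0.485 with dim arrays raised to the median. In limma's test 3 of the 7 had an unadjusted p below 0.05 upward, against 7.38% of all genes. The list's summed signal, Acta2 included, was 5601 to 9919 on the E11.5 arrays and 3067 to 3823 on the E10.5 arrays. Without Acta2 the other 6 genes summed to 1033 to 1990 at E11.5 and 595 to 1230 at E10.5, which overlap, and the part of such cells in the result was not tested.

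Most muscle differentiation genes did not reach the threshold of the test over both regions, which counts an unequal change in head and trunk as error. Of 52 tested genes of the filaments, Z-disc, excitation and muscle energy supply, 3 rose (Tnnt1, Ttn and Myot) and 0 fell in limma's test. As 14 of the 52 passed the filter only through E11.5 arrays and so had to be higher there, the values in the rest of this paragraph leave them out. Of the other 38, 29 had a positive difference (76.3%, against 50.5% of the 7274 genes of all kinds that passed without E11.5), and 18 had an unadjusted p below 0.05 upward (47.4%, against 6.72%). Both E11.5 arrays were above both E10.5 arrays in each region for 9 of the 38 (23.7%, against 6.17%). Their median log2 difference was 0.56 over both regions, 0.90 in head and 0.23 in trunk, and 0.34 over both with dim arrays raised to the median. In bulk RNA, more differentiating cells and more transcript per cell cannot be told apart.

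Among 12 thick filament genes limma called none. Of the 8 that passed the filter without E11.5, 5 had an unadjusted p below 0.05 upward, and the median log2 difference was 1.22, or 0.49 with dim arrays raised to the median. Myh3, the embryonic myosin heavy chain, had 2381 and 1678 in head and 4519 and 2317 in trunk at E11.5, against 159 and 238 in head and 2659 and 1937 in trunk at E10.5. In head both E11.5 arrays were far above both E10.5 arrays, and in trunk the E10.5 arrays were already high. The log2 difference was 1.94 (adjusted p = 0.118), with 3.36 in head and 0.51 in trunk. Myh8, the perinatal heavy chain, was at 2.04 (adjusted p = 0.0757), and Mybph, a myosin-binding protein, at 2.09 (adjusted p = 0.313), with 4.04 in head and 0.14 in trunk. Myh8 passed the filter only through E11.5, and 3 of its E10.5 arrays were dim. For Mybph 2 E10.5 arrays and 1 E11.5 array were dim, and raising them to the median left 0.47 in head and 0.14 in trunk on the log2 scale.

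The 11 thin filament genes had a median log2 difference of 1.08 (0.43 with dim arrays raised to the median), with Tnnt1 called, and none of them passed the filter only through E11.5. The 10 genes of the Z-disc list that passed without E11.5 had a median of 0.32, or 0.21 with dim arrays raised. Actc1, the cardiac actin that is also the main actin of embryonic skeletal muscle, had 7883 and 7491 in head and 8272 and 6686 in trunk at E11.5, against 1103 and 2147 in head and 5595 and 6067 in trunk at E10.5, with a log2 difference of 1.34 (adjusted p = 0.122). Tnnc1, the slow and cardiac troponin C, was at 1.08 (adjusted p = 0.146) and Tpm1, a tropomyosin, at 0.35 (adjusted p = 0.402). The summed signal of the thin filament list was 19568 to 22000 on the E11.5 arrays and 12405 to 16082 on the E10.5 arrays, without overlap. The sums of the other lists overlapped between the stages. For the thick filament they were 3054 to 7938 at E11.5 and 726 to 4463 at E10.5. For the Z-disc they were 7264 to 9989 at E11.5 and 5368 to 7450 at E10.5. For excitation they were 7534 to 8454 at E11.5 and 5829 to 8720 at E10.5. These sums hold all tested members, also those that passed the filter only through E11.5. Such members were 4 of 12 for the thick filament, 1 of 11 for the Z-disc and 9 of 11 for excitation.

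Of 11 excitation and acetylcholine receptor genes limma called none. Since 9 of the 11 passed the filter only through E11.5, no median is given for them. Chrna1, the alpha subunit of the muscle acetylcholine receptor, had 334 and 311 in head and 311 and 179.6 in trunk at E11.5, against 17.6 and 49.7 in head and 141 and 131 in trunk at E10.5, with a log2 difference of 2.12 (adjusted p = 0.11). Both head arrays of E10.5 were dim, and with these raised to the median the difference was 1.55 in head and 0.80 in trunk. Ryr1, the calcium release channel of the sarcoplasmic reticulum, had 257 and 254 in head and 270.0 and 135 in trunk at E11.5, against 5.4 and 3.3 in head and 129 and 93.2 in trunk at E10.5. It passed the filter only through E11.5, and 3 of its E10.5 arrays were dim. Its log2 difference was 3.36 (adjusted p = 0.118), and with the dim arrays raised to the median it was 1.22 in head and 0.68 in trunk. The 7 energy metabolism genes had a median of -0.01 and no called gene.

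**Figure D3:**
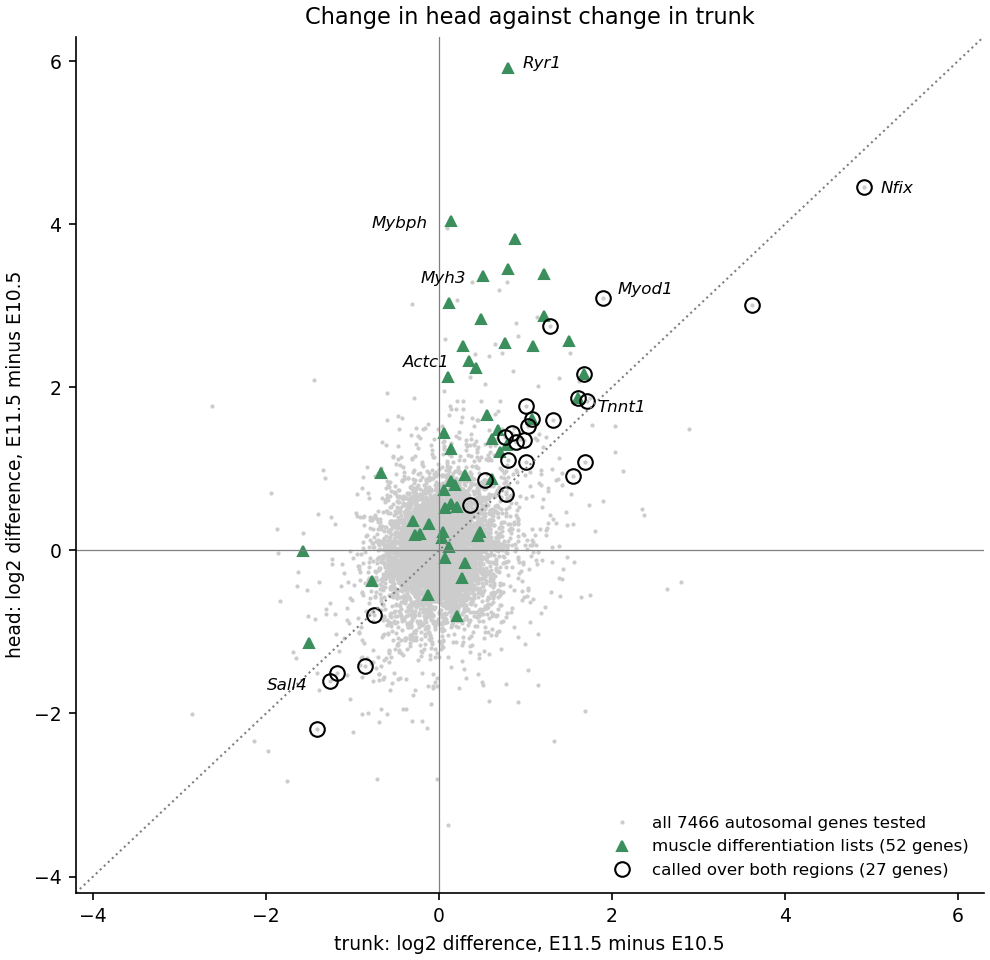
Log2 difference, E11.5 minus E10.5, in head (vertical axis) against trunk (horizontal axis) for the 7466 autosomal genes; triangles are the 52 muscle differentiation genes, open circles the 27 genes called over both regions, and the dotted line marks equal change. All called genes lie to the upper right or lower left of 0, whereas muscle genes such as Myh3 (3.36 in head, 0.51 in trunk) and Actc1 (2.32 in head, 0.35 in trunk) lie far above the dotted line. Signals of dim arrays are plotted as deposited.

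No gene passed the test of the difference between head and trunk in limma (0% called, 796 genes with an unadjusted p below 0.05, smallest adjusted p = 0.142). Head alone gave 91 called genes (1.22%; 57 up and 34 down, 1289 with an unadjusted p below 0.05), and trunk alone gave 0 (608 with an unadjusted p below 0.05). These counts do not show that the regions differ. The 8 genes with the smallest p for the difference were Ryr1, Myh3, Tgfbi, Actc1, Sox2, Ank1, Sparc and Myog. The Ryr1 difference was 5.92 in head and 0.80 in trunk (adjusted p of the difference = 0.142), which shrinks to the values given above once its dim arrays are raised, and that of Actc1 2.32 in head and 0.35 in trunk (adjusted p of the difference = 0.297). Tgfbi, a matrix protein, had -0.70 in head and 0.84 in trunk (adjusted p of the difference = 0.297), and Sparc, another matrix protein, -0.63 in head and 0.63 in trunk (adjusted p of the difference = 0.297). Sox2, a neural progenitor factor, had -1.56 in head and 0.31 in trunk (adjusted p of the difference = 0.297), and Ank1, a membrane-skeleton ankyrin, 2.80 in head and 0.90 in trunk (adjusted p of the difference = 0.297). Leaving out 1 array gave 3 called genes without head E10.5 replicate 1, 1 without head E10.5 replicate 2, 3 without trunk E11.5 replicate 1, and 0 in the other 5 fits.

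Over the 3 stages, Myod1, Tnnt1, Ttn and Myh3 had their lowest signals at E9.5. This did not hold in head for every muscle gene. There, Actc1 had 1176 and 1321 at E9.5, against 1103 and 2147 at E10.5. Acta2 in head had 4017 and 2031 at E9.5, against 3028 and 2472 at E10.5, and Ryr1 was dim on all of these arrays. Myod1 had 56.9 and 96.5 in head and 70.1 and 73.5 in trunk at E9.5, below both later stages. Tnnt1 had 6.2 and 49.0 in head and 12.2 and 26.6 in trunk at E9.5, all dim, and Ttn had 216 and 180.4 in head and 65.7 and 223 in trunk at E9.5. Myh3 had 5.3 and 3.5 in head and 7.5 and 288 in trunk at E9.5, so at E10.5 the trunk arrays, but not the head arrays, were already near the E11.5 level. No test was made against E9.5 here.

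**Figure D4:**
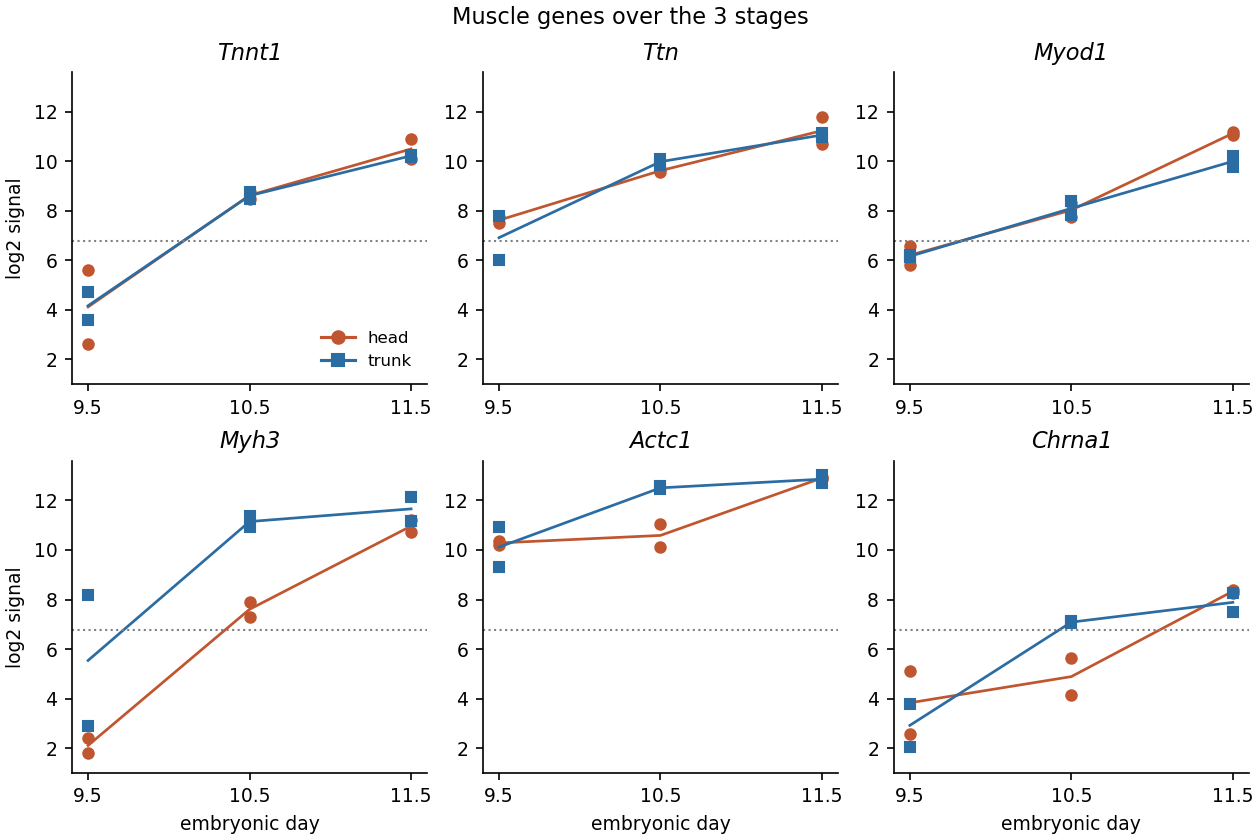
Log2 signal of 6 muscle genes by embryonic day; points are arrays, lines join the mean of the 2 arrays of a group, circles are head, squares trunk, and the dotted line is the median probe set of an array. Tnnt1, Ttn and Myod1 climb in both regions between E10.5 and E11.5, whereas for Myh3, Actc1 and Chrna1 the trunk at E10.5 is above the head at E10.5.

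Receptors and surface proteins made up a further set of called genes. Fgfr4, the fibroblast growth factor receptor typical of embryonic muscle progenitors, had 613 and 728 in head and 337 and 337 in trunk at E11.5, against 91.8 and 107 in head and 138 and 138 in trunk at E10.5 (chr13:55152818-55168759). Both head arrays of E10.5 were dim, and the lowest E11.5 array was above the highest E10.5 array. Fgfr4 rose by 2.02 ± 0.27 (SE) on the log2 scale, at least 3.85-fold, with an adjusted p of 0.0143, a call lost without head E10.5 replicate 2 (adjusted p = 0.0577) or the first head array of E11.5 (adjusted p = 0.0926). Fgfr4 was the 1 called gene of 11 in the FGF pathway (median 0.20): Fgfr1 was at 0.11 (adjusted p = 0.814), Fgfr2 at -0.29 (adjusted p = 0.463), and the feedback inhibitor Dusp6 at -0.43 (adjusted p = 0.322).

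Erbb3, a neuregulin receptor, had 3171 and 3669 in head and 1633 and 1501 in trunk at E11.5, against 1312 and 766 in head and 799 and 764 in trunk at E10.5 (chr10:128567523-128589635). All E11.5 arrays were above all E10.5 arrays, and head E10.5 replicate 1 stood above the other 3 E10.5 arrays. Erbb3 rose by 1.38 ± 0.20 (SE) on the log2 scale, 2.61-fold, with an adjusted p of 0.0195. Erbb3 is also a marker of Schwann cell precursors, and of the 6 tested genes of that list it alone was called. Sox10, the defining glial factor, had 109.5 and 73.0 in head and 60.7 and 77.5 in trunk at E11.5, against 33.4 and 48.4 in head and 70.4 and 55.2 in trunk at E10.5, dim on all 8 arrays, so no difference is given. The summed signal of the list, Erbb3 included, was 3642 to 4928 at E11.5 and 2410 to 3273 at E10.5. Without Erbb3 the other 5 genes summed to 1258 to 2226 at E11.5 and 1460 to 2507 at E10.5, which overlap, and the part of such cells in the result was not tested.

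Dner, a membrane protein with Delta-like repeats known mainly from neurons, had 623 and 1021 in head and 694 and 1095 in trunk at E11.5, against 191.5 and 263 in head and 276.5 and 256 in trunk at E10.5 (chr1:84369839-84696221). The stages were far apart and both regions alike. Dner rose by 1.77 ± 0.21 (SE) on the log2 scale, 3.41-fold, with an adjusted p of 0.0115. Limma called none of the 24 tested neuronal genes (4 up and 2 down at an unadjusted p below 0.05, median 0.03): Prph, a peripheral neuron filament, was at 1.97 (adjusted p = 0.118), Syt4, a synaptic vesicle protein, at 1.66 (adjusted p = 0.204), and Neurod1, a neuronal determination factor, at -0.71 (adjusted p = 0.122). Of the 24, 3 passed the filter only through E11.5, Prph and Syt4 among them. Of the other 21, 2 had an unadjusted p below 0.05 upward (9.52%). The share was 6.72% among genes of all kinds that passed without E11.5. The neuronal list summed to 11458 to 22613 at E11.5 and 10754 to 17520 at E10.5, so the ranges overlap, and the part of neuronal cells was not tested. Of the 22 Notch pathway genes limma called none (4 up and 4 down unadjusted), and the median was -0.11. Over all genes tested, 7.38% had an unadjusted p below 0.05 upward and 5.5% downward.

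Tspan33, a tetraspanin, had 483 and 295.5 in head and 144 and 139.6 in trunk at E11.5, against 146 and 148 in head and 71.9 and 71.7 in trunk at E10.5, and Tspan33 rose by 1.17 ± 0.21 (SE) on the log2 scale, at least 1.82-fold, with an adjusted p of 0.048. A further probe set of Tspan33 gave 0.02, and no fit that left out 1 array kept the call (adjusted p from 0.0552 to 0.156). Igdcc4, an immunoglobulin-domain membrane protein, had 5978 and 6878 in head and 4737 and 4547 in trunk at E11.5, against 3547 and 2511 in head and 2878 and 2493 in trunk at E10.5, with no overlap between stages. Igdcc4 rose by 0.95 ± 0.13 (SE) on the log2 scale, 1.93-fold, with an adjusted p of 0.0143.

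Parm1, a mucin-like membrane protein, rose by 0.73 (adjusted p = 0.0275). Ccn3, a secreted matricellular protein, had 139.8 and 120.0 in head and 215 and 199 in trunk at E11.5, against 56.7 and 65.7 in head and 76.7 and 53.4 in trunk at E10.5, with all E10.5 arrays dim. Ccn3 rose by 1.39 ± 0.24 (SE) on the log2 scale, at least 1.49-fold, with an adjusted p of 0.0463. It passed the filter only through its 4 E11.5 arrays, like Nfix and Myot (3 of the 27 called genes and 192 of all 7466), and the call was lost without any 1 array (adjusted p from 0.056 to 0.139). Rgs16, which damps G protein signalling, rose by 1.05 (adjusted p = 0.048). With single arrays left out, Parm1 lost its call in 6 of 8 fits (adjusted p from 0.0534 to 0.0989) and Rgs16 in 7 of 8 (adjusted p from 0.071 to 0.154).

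Inside the cell, Cdkn1c (p57), an imprinted cyclin-dependent kinase inhibitor that holds differentiating muscle cells out of the cycle, had 9307 and 10178.5 in head and 11528 and 10082 in trunk at E11.5, against 6604 and 6644 in head and 8505 and 8359.9 in trunk at E10.5 (chr7:143458339-143461059). Its arrays were among the brightest and closely grouped, and the stages did not overlap. Cdkn1c rose by 0.45 ± 0.07 (SE) on the log2 scale, 1.37-fold, with an adjusted p of 0.0277. This was the smallest of the called changes, and the call held only without trunk E11.5 replicate 2 (adjusted p in the other 7 fits from 0.0534 to 0.111). It was the 1 called gene of 17 tested for cell cycle exit, whose median was 0.00. Cdkn1a (p21) was at 0.80 (adjusted p = 0.158), Rb1, the retinoblastoma protein, at 0.43 (adjusted p = 0.124), and Gadd45a, a growth arrest gene, at -0.85 (adjusted p = 0.151). The 37 DNA replication genes had a median of 0.00 and the 34 mitosis genes of -0.07, and limma called none of either. At an unadjusted p below 0.05, 1 replication gene was up and 1 down, and 2 mitosis genes were up and 4 down. The shares over all genes were 7.38% up and 5.5% down. Cdkn1c was also the 1 called gene of 19 imprinted genes (median 0.17), where Igf2, a growth factor, was at 0.56 (adjusted p = 0.112) and Meg3, a non-coding RNA, at 0.42 (adjusted p = 0.124).

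Celf2, an RNA-binding splicing regulator, rose by 0.70 (adjusted p = 0.0143), and Ncoa1, a coactivator of nuclear receptors, by 1.07 (adjusted p = 0.0228). Arpp21, a phosphoprotein regulated by cyclic AMP, rose by 1.14 (adjusted p = 0.0286). Tuba4a, an alpha-tubulin, rose by 1.11 (adjusted p = 0.0157) on its brightest probe set, whereas its other probe set gave -0.16. In head, the brightest probe set had 1688 and 1670 at E9.5, against 617 and 816 at E10.5. In trunk it had 421 and 394 at E9.5, against 532 and 543 at E10.5. AI506816, an expressed sequence of unassigned function, had 527 and 304 in head and 525 and 226 in trunk at E11.5, against 113 and 21.7 in head and 23.8 and 32.9 in trunk at E10.5. AI506816 rose by 3.32 ± 0.48 (SE) on the log2 scale, at least 3.36-fold, with an adjusted p of 0.0195, with 3 dim E10.5 arrays. At E9.5 it had 340 and 418 in head and 430 and 686 in trunk, so its signal was lowest at E10.5 in both regions. With single arrays left out, Celf2 lost its call in 2 fits, Tuba4a in 3, AI506816 in 4, Ncoa1 in 5 and Arpp21 in 6 of the 8, with adjusted p values there between 0.0512 and 0.118. Of the 27 genes, 15 had a further probe set past the filter, and Tuba4a was the 1 that went the opposite way there.

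Among the 5 genes that fell, Sall4, a zinc finger factor of the early embryo and of pluripotent cells, had 359 and 283 in head and 235.5 and 217 in trunk at E11.5, against 1048 and 898 in head and 414 and 710.3 in trunk at E10.5 (chr2:168748332-168767201). Every E11.5 array was below every E10.5 array, and the signals were higher still in the youngest embryos, 2845 and 2647 in head and 3359.6 and 2389 in trunk at E9.5. Sall4 fell by 1.43 ± 0.19 (SE) on the log2 scale, 2.7-fold, with an adjusted p of 0.0143, a call lost without head E10.5 replicate 2 (adjusted p = 0.0577) or the first head array of E11.5 (adjusted p = 0.0926). Of the 7 tested early embryo genes it alone was called (median -0.24). Lin28a, a regulator of let-7 microRNAs, was dim on all 8 arrays, so no difference is given for it, and Dnmt3b, a DNA methyltransferase, was at -0.30 (adjusted p = 0.586).

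Hapln1, which links hyaluronan to proteoglycans in the matrix, had 69.2 and 42.6 in head and 83.7 and 60.4 in trunk at E11.5, against 314 and 195 in head and 180.2 and 199.6 in trunk at E10.5 (chr13:89540529-89611832). All 4 E11.5 arrays were dim and all 4 E10.5 arrays were not. Hapln1 fell by 1.80 ± 0.28 (SE) on the log2 scale, at least 1.97-fold, with an adjusted p of 0.0268. It was the 1 called gene of 12 on the cartilage and tendon list (median -0.27), where Sox9 was at -0.44 (adjusted p = 0.538) and Col2a1 at 0.20 (adjusted p = 0.788). That list summed to 3376 to 8517 at E11.5 and 5054 to 9654 at E10.5. Of the 12, 10 had a negative difference, against 48.7% of all genes. An unadjusted p below 0.05 downward was found for 2, against 5.5% of all genes, and the part of such cells was not tested. Members of this list that passed the filter only through E10.5 were not set apart.

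Kitl, the ligand of the Kit receptor, had 471 and 349 in head and 472 and 509 in trunk at E11.5, against 959 and 1233.5 in head and 869 and 904 in trunk at E10.5 (chr10:100015615-100100416). The E11.5 arrays were all below the E10.5 arrays. Kitl fell by 1.14 ± 0.17 (SE) on the log2 scale, 2.2-fold, with an adjusted p of 0.0231. Vnn1, a pantetheinase on the cell surface, had 99.1 and 131 in head and 159 and 107.5 in trunk at E11.5, against 366.5 and 282 in head and 347 and 254 in trunk at E10.5, and Vnn1 fell by 1.34 ± 0.21 (SE) on the log2 scale, at least 2.46-fold, with an adjusted p of 0.0275, with 2 dim E11.5 arrays. Tiparp, an ADP-ribosyltransferase induced through the aryl hydrocarbon receptor, had 991 and 1221 in head and 1277 and 1464 in trunk at E11.5, against 1862 and 1936 in head and 2266 and 2355 in trunk at E10.5. Both regions moved alike, and Tiparp fell by 0.77 ± 0.12 (SE) on the log2 scale, 1.71-fold, with an adjusted p of 0.0228. Each of Hapln1, Kitl, Tiparp and Vnn1 lost its call in at least 5 of the 8 fits that left out 1 array, with adjusted p values between 0.0518 and 0.109.

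Markers of other cell types that the sort could hold included lists with mostly negative differences. Over all genes 48.7% had a negative difference, and 411 (5.5%) had an unadjusted p below 0.05 downward. In the counts of these lists, members that passed the filter only through E10.5 were not set apart. Any such member had to be higher at E10.5, so the counts may hold members whose fall the filter fixed in advance. Of 22 tested endothelial genes none was called by limma, 12 had an unadjusted p below 0.05 downward and 21 had a negative difference (median -0.56, or -0.50 with dim arrays raised to the median; -1.10 in head and -0.25 in trunk), and 7 (31.8%) were lower in each region, against 5.68% of all genes. Flt1, a receptor for vascular endothelial growth factor, had 166 and 148 in head and 83.8 and 52.8 in trunk at E11.5, against 341 and 449.9 in head and 127 and 122 in trunk at E10.5, with a log2 difference of -1.11 (adjusted p = 0.0668). Cldn5, a tight junction protein of vessels, was at -1.10 (adjusted p = 0.0668), and Emcn, an endothelial mucin, at -1.22 (adjusted p = 0.102). The endothelial list summed to 2899 to 6582 on the E11.5 arrays and 2916 to 11616 on the E10.5 arrays.

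Of 20 epithelial genes none was called by limma, 8 had an unadjusted p below 0.05 downward, 18 had a negative difference (median -0.38, or -0.19 with dim arrays raised to the median), and 7 (35%) were lower in each region. Krt8, a keratin of simple epithelia, had 116 and 88.0 in head and 87.2 and 93.3 in trunk at E11.5, against 527 and 360.3 in head and 128 and 167 in trunk at E10.5, with a log2 difference of -1.40 (adjusted p = 0.0786), and Epcam, an epithelial adhesion protein, was at -0.92 (adjusted p = 0.0673). The epithelial sum was 6779 to 7874 at E11.5 and 8325 to 10725 at E10.5, without overlap. Of 11 neural progenitor and forebrain genes limma called none (1 down at an unadjusted p below 0.05), 8 had a negative difference (median -0.38, or -0.09 with dim arrays raised), and they summed to 2977 to 5171 at E11.5 and 4023 to 5751 at E10.5, which overlap. No marker of these lists was at 0 on any array, since the MAS5 scale has no zeros here. The part of these cells in the changes of the called genes was not tested.

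**Figure D5:**
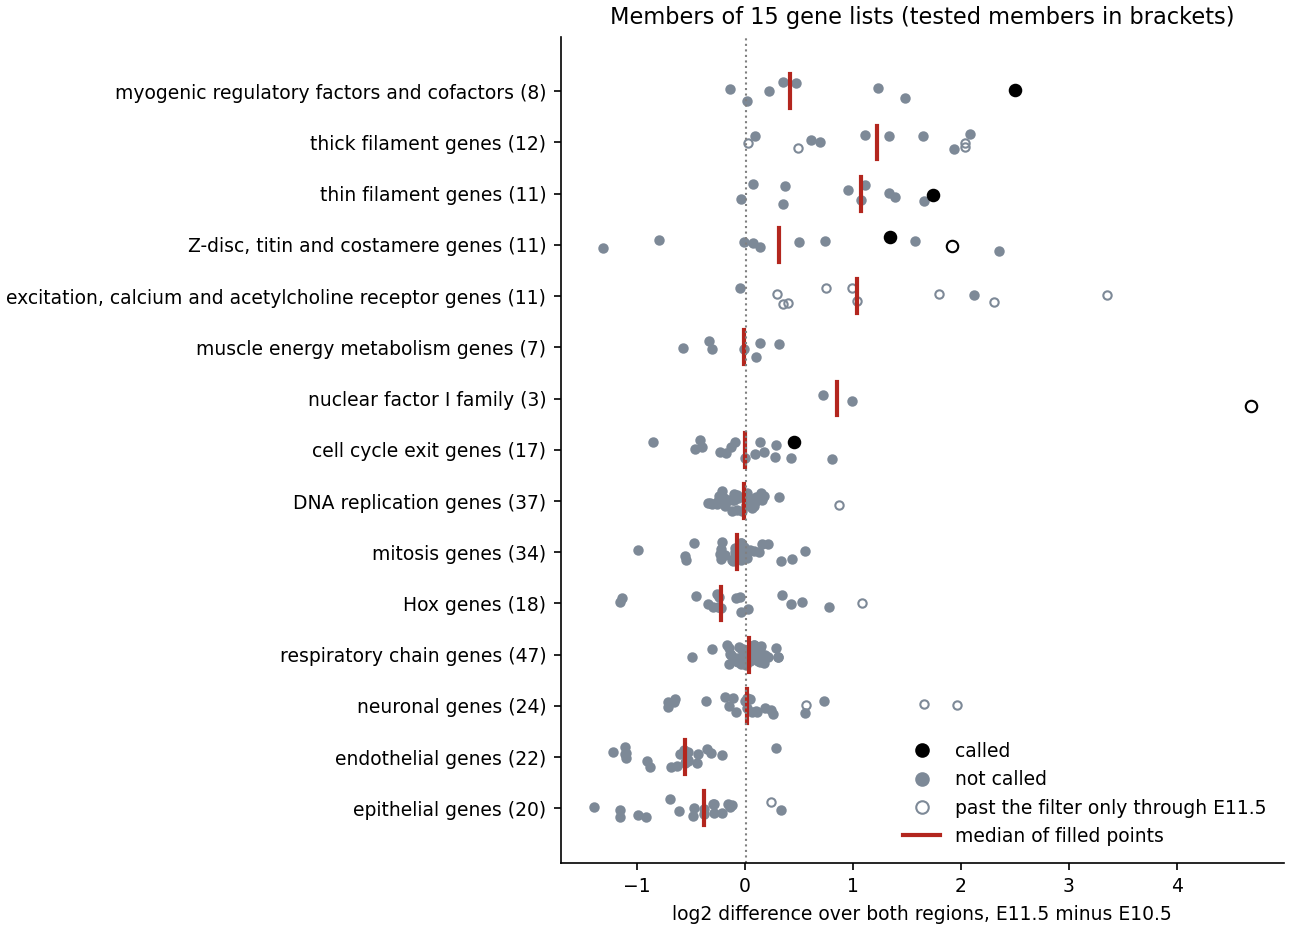
Log2 difference over both regions, E11.5 minus E10.5, for the tested members of 15 gene lists; black points passed the test, grey points did not, open points passed the signal filter only through E11.5, red bars are medians of the filled points, and the dotted line is the median of all genes. Medians of the thick filament (1.22) and thin filament (1.08) lists lie right of 0, those of the endothelial (-0.56) and epithelial (-0.38) lists left of it, and the cell cycle lists close to 0. The bar of the excitation list rests on 2 filled points. Members that passed the filter only through E10.5 are not marked.

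Promoters of called genes are shown because the binding motif of Myod1 and its relatives is the E-box, CANNTG, and CAGCTG is the form these factors favour. Of the 27 genes, 18 had an entry in the promoter set used here (GRCm38.p6). The 250 bases before each start site were searched on both strands (both motifs are palindromes in their fixed letters, and each CAGCTG is also a CANNTG). Promoters of 2 genes that rose with an E-box, 1 that rose without and 1 that fell without are given 5′ to 3′ along the gene's strand, with CANNTG in capitals. They are Tnnt1 (chr7:4515976-4516225, minus strand), Fgfr4 (chr13:55152568-55152817, plus strand), Dner (chr1:84696222-84696471, minus strand) and Tiparp (chr3:65528197-65528446, plus strand).
Tnnt1: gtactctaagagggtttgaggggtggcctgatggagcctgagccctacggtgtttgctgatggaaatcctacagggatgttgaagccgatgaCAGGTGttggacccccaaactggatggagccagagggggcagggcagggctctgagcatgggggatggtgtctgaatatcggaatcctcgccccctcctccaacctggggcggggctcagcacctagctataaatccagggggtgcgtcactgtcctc
Fgfr4: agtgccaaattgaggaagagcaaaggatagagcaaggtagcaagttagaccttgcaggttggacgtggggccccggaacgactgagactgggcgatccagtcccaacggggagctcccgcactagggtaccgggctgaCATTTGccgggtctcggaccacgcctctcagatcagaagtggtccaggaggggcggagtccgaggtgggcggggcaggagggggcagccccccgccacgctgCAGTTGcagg
Dner: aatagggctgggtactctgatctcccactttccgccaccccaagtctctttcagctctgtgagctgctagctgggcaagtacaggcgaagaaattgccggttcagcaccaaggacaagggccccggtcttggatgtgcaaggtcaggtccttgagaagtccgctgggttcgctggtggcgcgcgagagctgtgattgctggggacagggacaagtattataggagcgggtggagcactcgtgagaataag
Tiparp: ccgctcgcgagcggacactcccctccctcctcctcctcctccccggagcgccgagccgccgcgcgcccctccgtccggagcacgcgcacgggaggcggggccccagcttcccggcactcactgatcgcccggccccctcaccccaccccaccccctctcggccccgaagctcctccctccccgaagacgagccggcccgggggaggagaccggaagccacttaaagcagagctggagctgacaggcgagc

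The CANNTG motif lay in 22 of 30 promoters of the 15 genes that rose (73.3%) and in 0 of 3 promoters of the 3 that fell, against 55.9% of the promoters of all genes tested and 66.2% of all 32851 promoters in the table. CAGCTG lay in 7 of the 30 (23.3%) and 0 of the 3, against 11.4% of the promoters of all genes tested and 13.0% of the table. Several of the 30 belong to 1 gene and overlap (Arpp21 alone has 9 entries, each with CANNTG), so they are not separate observations. The genes tested had 7908 promoters for 6066 genes, fewer per gene than the 30 for 15. The percentages are thus shares of entries, and no count by gene was made. The genes without an entry were Myod1, Msc, Tbx2, Erbb3, Cdkn1c, Ccn3, Myot, Sall4 and Vnn1. A match describes the letters of these windows, and no binding was measured.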

How the data were processed

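Biotinylated cRNA from amplified RNA of 12 samples was hybridised to Affymetrix arrays of 22690 probe sets. Per the submitters' processing notes, MAS5 in the Affymetrix Expression Console produced the deposited values. The authors deposited an intensity per probe set on a linear scale, called signal here. No scaling beyond the near-equal array medians is given in the sources used here. From there, log2(signal) was taken with no offset. Leaving out 64 control probe sets, 20380 carried 1 gene, 691 several and 1555 none in the platform annotation. Probe sets had to exceed the array median on at least 2 of the 12 arrays, and the probe set of highest mean stood for its gene. Of 7722 genes, 245 on X, 3 on Y, 7 without a chromosome and 1 mitochondrial were left out.

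The test was limma 3.58.1 in R 4.3.3 (region and stage as terms, intensity trend, two-sided, 5 residual and 5.62 prior degrees of freedom), with Benjamini-Hochberg adjustment over 7466 genes at 0.05. Changes within a region and their difference came from 4 group means on the same 8 arrays. Tested on simulated data for E11.5 against E10.5 over both regions (5 runs on 7466 genes, 200 of them changed), the fit recovered 71.7% of genes changed by 1 and 94.4% of those changed by 2 on the log2 scale, with 4 to 10 false calls a run. Recovery of a change of unequal size in head and trunk, which this fit counts as error, was not tested separately. Whether the noise in these runs was as large as the error of this fit on the data was not tested either. The percentages describe these runs and not the recovery on the data. On the data, this fit called 27 genes and the fit with 4 group means called 111. Having 2 arrays per group limits the precision.

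The comparison and the 40 gene lists were chosen with earlier results of these data known. Named are all 27 called genes, 12 muscle regulators in any case, up to 4 members of a list that did not pass, and the 8 genes of smallest p for the regional difference. Naming every called gene goes beyond the rule of at most 15 a direction and was decided after their values were seen. Alternatives changed the normalization, the filter, an offset, the probe set, the arrays fitted, the model terms and single arrays.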

Additional observations from a re-analysis of the deposited data

Results flagged for a closer look

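Of 146 sets of 4 arrays examined for 73 genes named here (each gene at each stage), 6 held an array far from the rest (4.11%). The cut-off flags about 1 in 20 sets when all 4 values come from 1 normal distribution. Each set here joins 2 head and 2 trunk arrays, so 4.11% cannot be set against that rate. Values are log2 signals, with the gap as a share of the whole range. Erbb3 at E10.5 had 10.36 in head replicate 1 and 9.58 to 9.64 in the other 3 arrays (gap 0.917). This array is 1 of the pair with low Xist, and without it Erbb3 kept its call over both regions. Trunk replicate 2 of E11.5 was low for Chrna1, at 7.49 against 8.28 to 8.39 (gap 0.883), and for Ryr1, at 7.07 against 7.99 to 8.08 (gap 0.911). Syt4 at E11.5 had 7.9 in head replicate 2 and 6.49 to 6.66 elsewhere (gap 0.876). Nfia at E10.5 had 6.46 in head replicate 2 and 7.21 to 7.35 elsewhere (gap 0.835). Lin28a at E10.5 had 4.17 in trunk replicate 1 and 6.47 to 6.71 elsewhere (gap 0.905), all of them dim.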

How the results depend on the processing

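The direction of the 27 called genes held in the fits run, with 1 exception: in 557 results for these genes, 363 kept sign and call, 193 kept the sign and missed the threshold, and 1 turned, Tuba4a, at -0.16 when probe sets with shared-sequence suffixes were left out. Quantile normalization, median centring, and keeping X and Y genes in the fit and the adjustment (7722 genes, with autosomal genes counted) each left 27 called genes (22 up, 5 down), an offset of 32 gave 28 and the stricter filter 23. No filter gave 19 (15 up, 4 down). Leaving out suffixed probe sets gave 14 (11 up, 3 down), where 19 of the 27 were tested and 14 called. Fitting 12 arrays gave 72 (42 up, 30 down), with 21 of the 27 among them, and 4 group means gave 111 (78 up, 33 down). Dropping the intensity trend gave 3 (3 up, 0 down; 970 at an unadjusted p below 0.05). Leaving out both E10.5 arrays numbered 1 gave 2 (2 up, 0 down; 692 unadjusted), with fewer arrays; Myod1 and Tnnt1 had an adjusted p of 0.0995 there and Dner of 0.108.

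Single arrays left out gave 4 to 33 called genes, 4 to 23 up and 0 to 13 down. Of the 27, the fits without an E10.5 array lost 13 (head replicate 1), 21 (head replicate 2), 16 (trunk replicate 1) and 14 (trunk replicate 2), and those without an E11.5 array lost 23 (head replicate 1), 12 (head replicate 2), 10 (trunk replicate 1) and 6 (trunk replicate 2). The regional difference gave 0 to 3 called genes in these fits and 0 under every other alternative run for it.

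The replicate number as a block gave 19 called genes (14 up, 5 down), and 0 for the regional difference. Same-numbered arrays of successive stages correlated at 0.0943 (head) and 0.0848 (trunk) in their deviations, and come from embryos of different stages, so the numbers were not taken to pair samples. Same-numbered head and trunk arrays of a stage correlated at -0.0191 (E10.5) and -0.0936 (E11.5), and the labels do not say whether they share embryos. Stage and number as a random block gave 250 called genes (162 up, 88 down) at a consensus correlation of -0.257; that negative value was not tested for a cause.

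Signs turned for 5 genes near 0 that did not pass. Meox1 went to -0.0386 with the offset, and with single arrays left out ranged from -0.273 to 0.369, negative without any 1 of the 4 head arrays. Tbx1 ranged from -0.0929 to 0.143, negative without head E10.5 replicate 2, head E11.5 replicate 1, trunk E10.5 replicate 2 or trunk E11.5 replicate 2. Lhx2 ranged from -0.924 to 0.104, positive without head E10.5 replicate 2 or either head E11.5 array. Tcf21 ranged from -0.229 to 0.0847, positive without replicate 2 of head E10.5 or of head E11.5, and Pax3 from -0.211 to 0.098, positive without trunk E10.5 replicate 2 or trunk E11.5 replicate 1. Except where fewer arrays or genes entered, the cause was not tested.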

Other observations

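Other gene groups held no called gene. The log2 differences of 47 respiratory chain genes ran from -0.49 to 0.31. The median was 0.32 for 19 collagen genes and 0.22 for 34 other matrix genes, of which 1 and 5 passed the filter only through E11.5. The 18 tested Hox genes had a median of -0.15, and 12 of them were negative, against 48.7% of all genes. Among signalling lists, Wnt (31 genes, median 0.08), BMP and TGF-beta (32, median 0.02), Hedgehog (10, median 0.17) and retinoic acid (11, median -0.17) held no called gene. Of the 31 Wnt genes 4 had both E11.5 arrays above both E10.5 arrays in each region, as had 3 of the 10 Hedgehog genes (30%) and 4 of the 32 BMP and TGF-beta genes, against 6.74% of all genes.

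Erythroid genes (7 tested) had a median of -0.10 with sums of 9969 to 20699 at E11.5 and 11321 to 21680 at E10.5. Macrophage and leukocyte genes (8 tested) had a median of 0.23, with sums of 982 to 2586 at E11.5 and 839 to 4055 at E10.5. Of the 8, 2 passed the filter only through E11.5.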
